A study of Mus musculus with 6 samples.

Results

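The genes described here build the motile cilium. The rule that picks them uses symbols and no measured value, although it was written with earlier results of these data known. It takes the mouse gene symbols of axonemal dynein heavy chains (Dnah), dynein intermediate chains (Dnaic), dynein assembly factors (Dnaaf), cilia and flagella associated proteins (Cfap), radial spoke head proteins (Rsph) and tektins (Tekt), together with Spag6, Spag16, Spag17, Ccdc39, Ccdc40, Ccdc113, Ccdc114, Ccdc151, Hydin, Drc1 and Tppp3. The rule found 41 of the 24063 gene symbols in the files, with 48 transcripts. They were measured in RNA of endothelial cells (ECs) that the authors isolated from lungs of C57BL6 mice with magnetic beads coupled to an antibody against CD31, an adhesion protein of the EC surface. The study compared 3 libraries from sham-operated mice, which underwent thoracotomy only, with 3 libraries from mice 7 days after unilateral pneumonectomy (PNX), in which the left lung is removed and the remaining lung grows. The mice were males 8 weeks old by the labels, whereas the methods give an older age at surgery, and every library holds RNA pooled from 2 mice. The genotype was the same in both groups. The labels differ in the surgery and in the day after it, which they give as 7 for PNX and do not give for sham.

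A motile cilium is a hair-like projection that beats. Its core, the axoneme, is a ring of doublet microtubules around a central pair of single microtubules. Outer and inner dynein arms on the doublets are motors that slide the doublets past each other. Radial spokes, the central pair apparatus and the nexin links regulate that sliding. In the lung, motile cilia in large number are carried by the multiciliated cells of the conducting airways, where they move mucus. ECs are not known to bear beating cilia, although they can carry a single primary cilium, which lacks the outer dynein arms and the central pair. Transcription of motile cilium genes in multiciliated cells is known to be driven by FOXJ1 and by RFX factors.

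The total count per library was 29526989 to 81282871 over 33068 transcripts, and was lowest in replicate 3 of each group. The labels say that replicates 1 and 2 of both groups were taken over from a previous record, and do not say so of replicate 3. From this they are called the earlier deposit here, and replicate 3 the later deposit. Replicates 1 and 2 lay within little more than counting error of each other. A chi-square that would be near 1 per degree of freedom from counting alone came to 1.75 for this pair in sham and 1.57 in PNX, against 67.9 to 86.4 for pairs with replicate 3. The pair was therefore summed to a single sample, so that each group had n = 2 samples. The labels do not say which mice entered which library, so p-values measure the spread between these samples only. The 10 EC markers examined were detected in every library, and summed to 9167 to 11385 CPM (the count divided by the library size, as scaled by TMM, the trimmed mean of M values, and given at a common depth) in sham and 8491 to 9477 CPM in PNX. Markers of airway and alveolar epithelium were detected in every library too, and their values follow the results on the cilium genes.

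The cilium genes were low in these libraries. By the authors' TPM (a level corrected for transcript length) of the transcript with the highest count, 38 of the 41 had a sham mean under 10, and the median over the 40 genes tested was 4.29 TPM in sham and 2.00 TPM in PNX. Tppp3, which encodes a tubulin polymerization promoting protein, was far above the others, at 343 TPM in sham and 248 TPM in PNX. Cfap20 followed at 40.2 and 40.9 TPM, and Rsph1 at 14.2 and 6.93 TPM. Rsph6a, a radial spoke head protein known mainly from sperm, had a count of 0 in all 6 libraries and was not tested. A count of 0 allows up to 3 counts in a library.

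Most cilium genes were lower after PNX. Summed over the 41 genes, the level was 389, 393 and 487 CPM in sham replicates 1, 2 and 3, and 263, 271 and 275 CPM in PNX replicates 1, 2 and 3. Without Tppp3, the most abundant of them, the sums were 245, 248 and 356 CPM in sham against 158, 162 and 185 CPM in PNX. All 3 PNX libraries lay below all 3 sham libraries in both sums, and sham replicate 3 stood above the other sham libraries. In bulk RNA, fewer cells of a type and less RNA per cell cannot be told apart. Sham replicate 3 was the highest of the 6 libraries for 30 of the 40 genes tested, and was above sham replicates 1 and 2 for 32 of them. Neither count was taken over all genes.

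Of the 40 genes tested, 35 had a fitted log2 fold change (PNX against sham) below 0, against 52% of all 16598 genes tested. A fold change below -1 was fitted for 18 of the 40, against 3.51% of all genes. For 29 of the 40 genes all 3 PNX libraries lay below all 3 sham libraries, against 18% of all genes, and for 1 gene, Dnah8, all 3 lay above, against 18.6% of all genes. The median log2 fold change was -0.90 over the cilium genes and -0.01 over all genes, and 4.41% of all genes lay below that median. Leaving out sham replicate 3 moved the median to -0.67, and leaving out PNX replicate 3 moved it to -1.23.

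Genes were tested with edgeR's quasi-likelihood test, Benjamini-Hochberg adjusted over all genes, and were called at the study's thresholds, a log2 fold change beyond 1 in either direction with an adjusted p below 0.01. With 4 samples and no block for deposit, 0 of the 40 cilium genes passed, as did 0% of all genes. Their adjusted p ranged from 0.136 to 0.996, and 21 of the 40 were lower with an unadjusted p under 0.05, against 4.96% of all genes. On these samples DESeq2 called 5 of the 40, all lower, against 0.508% of all genes called lower, and limma-voom called 0. With the deposit as a block (the replicate block), which leaves 1 residual degree of freedom, edgeR called 13 of the 40, all lower. Over all genes this fit called 5.12%, of which 1.23% of all genes were lower and 3.89% higher. At an adjusted p below 0.05 it called 17 of the 40, against 2.28% of all genes called lower. The 13 genes were Spag16, Rsph4a, Dnah5, Dnah9, Hydin, Cfap44, Dnah6, Ccdc40, Drc1, Tekt1, Dnah10, Spag6 and Rsph1. The biological coefficient of variation was 0.236 without the block and 0.0973 with it. "Fell" is used below only for genes called with the block.

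5 of the 13 genes (Ccdc40, Cfap44, Dnah5, Dnah6 and Dnah9) were called with the block under each of the 4 library scalings tried, and the other 8 were lost under at least 1 of them. The block with DESeq2's size factors called 5 of the 40, against 0.506% of all genes called lower, with upper-quartile scaling 6, against 0.59%, and with library size alone 5, against 0.476%. Without PNX replicate 1, 3 genes (Cfap44, Dnah5 and Dnah6) were called with the block, against 0.274% of all genes called lower. With the 6 libraries taken as separate replicates, edgeR without the block called 0 of the 40, against 0.24% of all genes lower, and DESeq2 called 14 of the 40, against 1.37%. Of the 13 genes, 12 were among those 14, the exception being Hydin. Both fits on the 6 libraries treat as separate samples the libraries summed above because they differed by little more than counting error. These fits also use the same counts as the fit with the block, so the overlap is not independent evidence for the 13 calls.

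**Figure D1:**
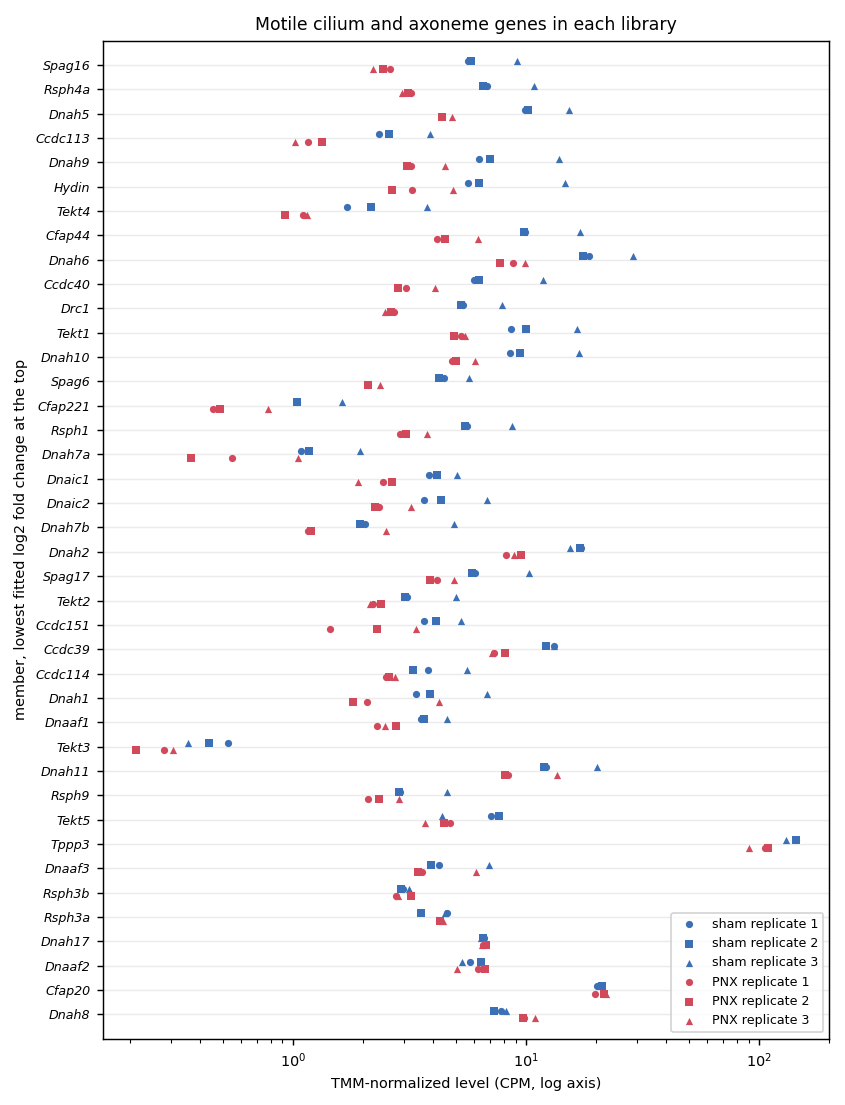
TMM-normalized level (CPM, log axis) of the 40 cilium genes tested, in each of the 6 libraries, ordered from the lowest fitted fold change at the top. Blue marks sham and red marks PNX, and the marker shape gives the replicate. For 29 genes the 3 red points all lie left of the 3 blue points, and the blue triangle of sham replicate 3 is the rightmost point for 30 genes.

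The genes are described by where their proteins sit in the axoneme, beginning with the motors. The outer dynein arm generates most of the force of the beat. Dnah5, a heavy chain of every outer arm in airway cilia, was 9.89, 10.2 and 15.3 CPM in the 3 sham libraries and 4.37, 4.34 and 4.80 CPM in the 3 PNX libraries. Its PNX values lay close together and its groups did not overlap. The fitted log2 fold change of Dnah5 was -1.47 ± 0.27 (SE; adjusted p = 0.137, edgeR) without the block and -1.41 ± 0.15 (adjusted p = 0.00104) with it, so Dnah5 fell. Dnah9, its partner in the distal part of the cilium, was 6.26, 6.99 and 13.9 CPM in sham against 3.20, 3.09 and 4.46 CPM in PNX. Dnah9 fell as well, with a log2 fold change of -1.33 (adjusted p = 0.00229) with the block and -1.43 (adjusted p = 0.290) without it. In both groups its later library was the highest of the 3.

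The other outer arm heavy chains did not pass. Dnah11, the partner of Dnah5 in the proximal cilium, was 12.2, 11.9 and 20.2 CPM in sham against 8.34, 8.08 and 13.6 CPM in PNX. Its groups overlapped, because PNX replicate 3 lay above sham replicates 1 and 2. Within each deposit the log2 ratio of Dnah11 was -0.55 and -0.57, and the adjusted p with the block was 0.00964 at a log2 fold change of -0.56, short of the fold threshold. Dnah17, a heavy chain of sperm flagella, was 6.59, 6.52 and 6.38 CPM in sham against 6.53, 6.72 and 6.46 CPM in PNX, with a log2 fold change of 0.02 ± 0.18. Dnah8, also known from sperm flagella, was 7.82, 7.28 and 8.17 CPM in sham against 9.74, 9.73 and 10.9 CPM in PNX. Its PNX libraries all lay above the sham libraries, at a log2 fold change of 0.39 ± 0.18 (adjusted p = 0.476 without and 0.0580 with the block).

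The intermediate chains and docking proteins that hold the outer arm together and onto the doublet were lower in all PNX libraries but were not called. The intermediate chain gene Dnaic1 was 3.82, 4.13 and 5.05 CPM in sham against 2.42, 2.66 and 1.89 CPM in PNX. Dnaic2, the other intermediate chain, had a log2 fold change of -0.97, close to that of Dnaic1 (-1.01), and adjusted p with the block was 0.0103 and 0.0231 in that order. The docking complex genes Ccdc151 and Ccdc114 had log2 fold changes of -0.82 and -0.78. Ccdc151 had the widest spread among PNX libraries of these 4 genes, with 1.44, 2.30 and 3.38 CPM. Both listed transcripts of Ccdc151 had the same count in every library, so its CPM may count each read repeatedly.

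The inner dynein arms, single heavy chains and 1 pair, shape the bend of the cilium. Dnah6 was the most abundant of these genes by count, at 18.6, 17.5 and 28.6 CPM in sham against 8.78, 7.75 and 9.91 CPM in PNX. The lowest sham library was far above the highest PNX library. Dnah6 fell, with a log2 fold change of -1.36 ± 0.28 (adjusted p = 0.162) without the block and -1.31 ± 0.13 (adjusted p = 0.000563) with it. Dnah10, a heavy chain of the 2-headed inner arm, was 8.49, 9.44 and 16.8 CPM in sham against 4.80, 5.02 and 6.05 CPM in PNX and fell too, by 1.14 on the log2 scale with the block. Dnah2, the other heavy chain of that arm, was 17.1, 17.1 and 15.5 CPM in sham against 8.19, 9.55 and 8.89 CPM in PNX. The groups were far apart, and sham replicate 3 was the lowest of the sham libraries here. Its adjusted p with the block was 0.00196, but at a log2 fold change of -0.88 ± 0.11 it did not pass the fold threshold.

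Dnah7a and Dnah7b, near-identical inner arm genes on chromosome 1, were low. Dnah7a was 1.08, 1.17 and 1.94 CPM in sham against 0.546, 0.363 and 1.05 CPM in PNX. Dnah7b was 2.03, 1.94 and 4.88 CPM in sham against 1.16, 1.20 and 2.50 CPM in PNX, so PNX replicate 3 lay above sham replicates 1 and 2. Of the stretches of 50 bases in their transcripts, 40.3% of those in Dnah7a and 48.4% of those in Dnah7b also occur in another gene, so counting may have moved reads among these genes, and their separate values are uncertain.

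The central pair apparatus held the gene with the lowest fold change of all 40. Spag16, which encodes a WD-repeat protein of the central pair, was 5.63, 5.79 and 9.17 CPM in sham against 2.61, 2.42 and 2.20 CPM in PNX. Its mean was 7.45 ± 2.45 CPM in sham against 2.37 ± 0.232 CPM in PNX (SD, n = 2 samples per group). Spag16 fell, with a log2 fold change of -1.64 ± 0.31 (adjusted p = 0.144) without the block and -1.55 ± 0.23 (adjusted p = 0.00374) with it. Within deposits its log2 ratio was -1.18 in the earlier and -2.06 in the later. Hydin, a very large protein of a central pair projection, was 5.62, 6.25 and 14.7 CPM in sham against 3.25, 2.65 and 4.87 CPM in PNX, and fell. Sham replicate 3 was over 2 times the other sham libraries, and the SE of its log2 fold change was 0.53 without the block and 0.18 with it.

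Spag6, a central pair protein with armadillo repeats, was 4.45, 4.21 and 5.70 CPM in sham against 2.09, 2.09 and 2.37 CPM in PNX. The groups were well apart, and Spag6 fell by 1.14 on the log2 scale with the block (adjusted p = 0.00450). By its transcript the file's Spag6 is the gene that RefSeq now calls Spag6l, on chromosome 16. Spag17, a scaffold of the central pair, was 6.01, 5.87 and 10.3 CPM in sham against 4.13, 3.87 and 4.90 CPM in PNX, and its log2 fold change of -0.86 did not pass in either fit.

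Ccdc39 and Ccdc40 form the molecular ruler that sets the repeat along the doublet, Drc1 is a subunit of the nexin-dynein regulatory complex, and Cfap44 belongs to the tether of an inner arm motor. Of these 4 genes 3 fell, and their median log2 fold change of -1.36 was the lowest among roles with at least 2 genes. Cfap44 was 9.92, 9.78 and 17.1 CPM in sham against 4.14, 4.49 and 6.19 CPM in PNX, with a log2 fold change of -1.32 ± 0.13 (adjusted p = 0.000699) with the block. Drc1 was 5.37, 5.27 and 7.90 CPM in sham against 2.70, 2.62 and 2.47 CPM in PNX. Ccdc40 was 5.98, 6.28 and 11.8 CPM in sham against 3.05, 2.81 and 4.06 CPM in PNX. Its ruler partner Ccdc39 was 13.1, 12.2 and 13.2 CPM in sham against 7.30, 8.09 and 7.17 CPM in PNX. The 6 values of Ccdc39 formed a tight pair of groups, yet at a log2 fold change of -0.80 it did not pass the fold threshold.

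The promoters of the cilium genes, called or not, were read for the sites of their known regulators. A 300-base window (250 bases before to 50 bases after the RefSeq start, GRCm38.p6) was at hand for 34 of the 41 genes. The 14-letter RFX X-box, searched on both strands as GTNNCC, then NNN, then GNAAC, occurred in 8 of these 34 genes (23.5%) and in 2.49% of the 27025 genes with such windows. The shorter RFX site GTTGCC, which the X-box can contain, occurred in 44.1% of the 34 and in 14.1% of all, and a forkhead site, TGTTTAC, in 8.82% and 4.05%. Of the 10 genes with a window that fell, 4 had an X-box (Cfap44, Hydin, Spag16 and Spag6), 7 had the shorter RFX site and 0 had the forkhead site. These are matches of letters and say nothing of binding. The 5 windows below hold the X-box within the 150 bases before the start, and are shown because the X-box lies near the start there, in genes that were called and in genes that were not. Each is written 5′ to 3′ along the gene, with the X-box in capitals.
Cfap44, chr16:44394649-44394798 (plus strand): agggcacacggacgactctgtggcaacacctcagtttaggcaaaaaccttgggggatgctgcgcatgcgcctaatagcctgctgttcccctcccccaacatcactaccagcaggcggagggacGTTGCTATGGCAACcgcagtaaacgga
Hydin, chr8:110266827-110266976 (plus strand): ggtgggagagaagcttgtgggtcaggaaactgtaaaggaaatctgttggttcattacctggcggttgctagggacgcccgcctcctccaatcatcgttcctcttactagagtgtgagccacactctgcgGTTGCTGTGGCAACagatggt
Spag16, chr1:69826820-69826969 (plus strand): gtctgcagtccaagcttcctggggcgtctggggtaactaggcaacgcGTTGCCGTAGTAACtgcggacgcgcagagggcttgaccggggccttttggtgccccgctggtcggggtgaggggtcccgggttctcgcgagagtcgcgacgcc
Ccdc151, chr9:22002635-22002784 (minus strand): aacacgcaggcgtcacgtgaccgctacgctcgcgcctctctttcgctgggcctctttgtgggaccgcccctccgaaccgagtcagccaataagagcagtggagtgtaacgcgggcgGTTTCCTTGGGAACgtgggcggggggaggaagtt
Dnaaf2, chr12:69198430-69198579 (minus strand): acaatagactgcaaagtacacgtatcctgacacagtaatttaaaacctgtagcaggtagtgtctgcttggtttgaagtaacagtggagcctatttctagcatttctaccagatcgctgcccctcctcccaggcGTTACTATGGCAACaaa

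The first base of the X-box lay 27 bases before the start in Cfap44, 21 in Hydin and 103 in Spag16, which all fell. It lay 34 bases before the start in Ccdc151 and 17 in Dnaaf2, which were not called. Dnaaf2, an assembly factor that helps to fold dyneins in the cytoplasm, was 5.73, 6.38 and 5.32 CPM in sham against 6.20, 6.67 and 5.04 CPM in PNX, with a log2 fold change of 0.02 ± 0.23. The groups of Dnaaf2 overlapped, whereas all PNX libraries of Ccdc151 lay below its sham libraries, and no difference between genes with and without the X-box was tested.

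Radial spokes carry signals from the central pair to the dynein arms. Rsph4a, a spoke head protein needed in airway cilia, was 6.77, 6.55 and 10.8 CPM in sham against 3.20, 3.12 and 2.94 CPM in PNX. Rsph4a fell, with a log2 fold change of -1.51 ± 0.30 (adjusted p = 0.161) without the block and -1.42 ± 0.21 (adjusted p = 0.00379) with it. Rsph1, another head protein, was 5.58, 5.47 and 8.67 CPM in sham against 2.86, 3.04 and 3.75 CPM in PNX and fell by 1.04 on the log2 scale with the block, close to the threshold. The spoke stalk genes Rsph3a and Rsph3b, by contrast, had log2 fold changes of 0.01 ± 0.21 and -0.07 ± 0.23, with overlapping groups. Rsph3a was 4.58, 3.55 and 4.50 CPM in sham against 4.21, 4.25 and 4.396 CPM in PNX. The sign of the Rsph3a value turned to -0.0025 under upper-quartile scaling, and 77.7% of its 50-base stretches also occur in Rsph3b, so the values of these 2 genes cannot be separated.

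Proteins inside the doublet microtubules include the tektins and Cfap20. Tekt1 was 8.63, 9.95 and 16.5 CPM in sham against 5.28, 4.90 and 5.48 CPM in PNX. It fell by 1.19 on the log2 scale with the block (adjusted p = 0.00474), and was the only tektin that did in this fit. Its 3 listed transcripts had nearly the same count, and 2 of them the same count in every library. Its CPM may thus count some reads repeatedly in both groups, which the sources do not settle. Cfap20, a small conserved protein found in primary as well as motile cilia, was 20.05, 21.1 and 20.9 CPM in sham against 19.8, 21.7 and 22.01 CPM in PNX. At a log2 fold change of 0.04 ± 0.14 its groups overlapped.

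Tppp3 was the most abundant gene of the set in every library. It was 144, 144 and 131 CPM in sham against 106, 109 and 90.2 CPM in PNX, and its groups did not overlap. Its later libraries were the lowest in each group. The log2 fold change was -0.48 ± 0.15 (adjusted p = 0.322) without the block and -0.48 ± 0.08 (adjusted p = 0.00702) with it, which missed the fold threshold. Tppp3 is known to be transcribed outside ciliated cells as well, for example in mesenchymal cells. The dynein assembly factor Dnaaf3 was 4.24, 3.89 and 6.93 CPM in sham against 3.56, 3.45 and 6.09 CPM in PNX, so the later library was higher in both groups and its log2 fold change was -0.20 ± 0.41. Ccdc113, which was put in no structural role here, was 2.33, 2.58 and 3.85 CPM in sham against 1.16, 1.33 and 1.01 CPM in PNX, and missed the call with the block at an adjusted p of 0.0128. The 8 tested genes not yet given with values, namely Cfap221, Dnaaf1, Dnah1, Rsph9, Tekt2, Tekt3, Tekt4 and Tekt5, had log2 fold changes from -1.38 to -0.50 and none was called in either fit.

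**Figure D2:**
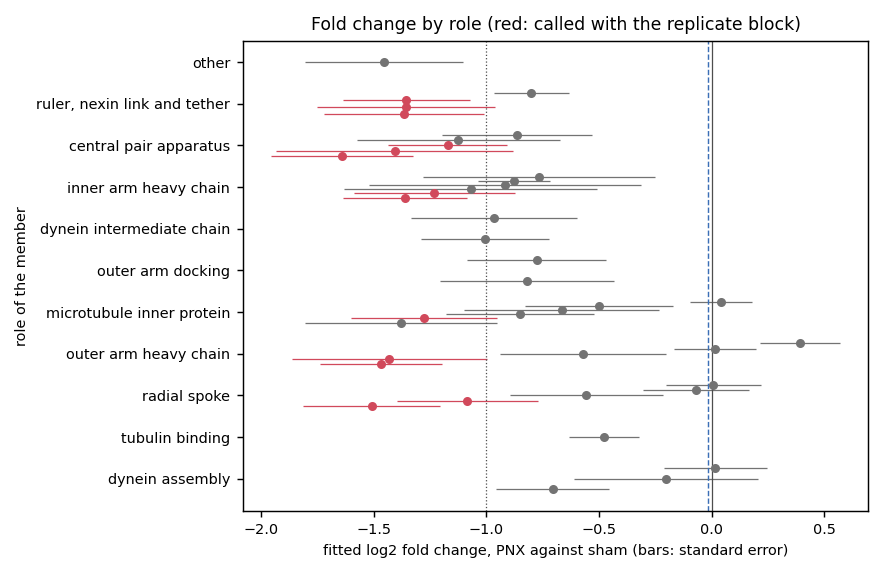
Fitted log2 fold change, PNX against sham, of the 40 cilium genes tested, 1 point each, in rows by role in the axoneme. Horizontal bars are standard errors from the fit without the block, red marks the 13 genes called with it, the dashed blue line is the median of all genes at -0.01, and the dotted line is -1. The median of the central pair row is -1.17 and that of the dynein assembly row is -0.20.

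By role, the median log2 fold change was -1.17 over the 5 central pair genes, -0.99 over the 6 inner arm heavy chains, -0.76 over the 6 genes of proteins inside the microtubules, -0.57 over the 5 outer arm heavy chains, -0.56 over the 5 radial spoke genes tested and -0.20 over the 3 assembly factors. The outer arm, radial spoke, inner microtubule and assembly genes each included at least 1 with a log2 fold change of 0 or above, namely Dnah8 and Dnah17, Rsph3a, Cfap20 and Dnaaf2. The roles hold few genes each and no difference between them was tested.

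The difference was present in both deposits. The log2 ratio of PNX to sham had a median over the 40 genes of -0.86 in the earlier deposit and -1.04 in the later, against -0.03 and -0.00 over all genes. It was below 0 in both deposits for 34 of the 40, against 6502 of 16496 genes of the whole table. The lower ratio was in the later deposit for 29 of the 40, a count not taken over all genes. Across the 40 genes, which are not independent replicates, the ratios in the 2 deposits correlated with r = 0.780 and rho = 0.709, as a description. Across 16496 genes of the whole table, r was 0.737 and rho 0.671. Dnah5 (-1.20 and -1.67), Cfap44 (-1.19 and -1.47) and Spag6 (-1.05 and -1.27) lay below -1 in both. The later libraries were higher than the earlier ones for the cilium genes by a median of 0.59 (log2) in sham and 0.12 in PNX. Over 14774 genes the medians were -0.03 in sham and 0.005 in PNX.

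**Figure D3:**
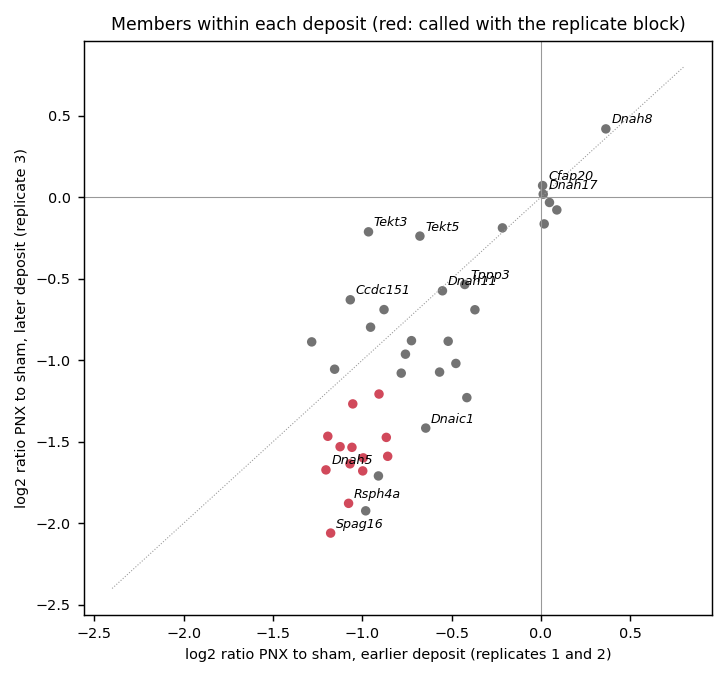
Log2 ratio of PNX to sham within the earlier deposit (x axis) and within the later deposit (y axis), for the 40 cilium genes tested, 1 point per gene. The dotted line marks equal ratios and red marks the 13 genes called with the replicate block. Of the 40 points, 34 lie in the lower left, and 29 lie below the dotted line.

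Regulators of motile ciliogenesis were measured in the same libraries. Foxj1, the forkhead factor of motile cilia, was 19.4, 19.99 and 23.4 CPM in sham against 9.82, 11.0 and 8.89 CPM in PNX. The groups did not overlap. Foxj1 fell, with a log2 fold change of -1.16 ± 0.18 (adjusted p = 0.111) without the block and -1.14 ± 0.13 (adjusted p = 0.00152) with it. Trp73, which acts upstream of Foxj1 in multiciliated cells, was 6.57, 6.04 and 9.67 CPM in sham against 3.46, 3.27 and 4.36 CPM in PNX and fell by 1.01 with the block, close to the threshold. Rfx3 and Rfx2 encode X-box factors. Rfx3 had a log2 fold change of -0.50 and Rfx2 of 0.13, and neither was called. The list of cilium transcription factors, which also holds E2f4 and Myb, had 12 tested genes, at a median log2 fold change of -0.23. Of the 12, 7 were fitted lower and 5 higher, against 52% of all genes fitted lower. With the block, 2 of the 12 were called lower and 0 higher, against 1.23% and 3.89% of all genes.

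Lists of other cilium genes gave a different picture. The 28 genes of intraflagellar transport, the machinery that builds both kinds of cilium, had a median log2 fold change of -0.05, and 0 of them were called by edgeR with the block or by DESeq2 on the 6 libraries, with 5 (3 of them lower) at an unadjusted p under 0.05 with the block, against 35.6% of all genes. They summed to 477 to 489 CPM in sham against 460 to 472 CPM in PNX. All PNX libraries lay below all sham libraries for 3 of the 28, against 18% of all genes, and above for 2, against 18.6%. Traf3ip1, among those 3, was at -0.70 (adjusted p = 0.00508, edgeR) with the block and missed the call on the fold threshold alone. A list of 12 genes was named for the BBSome, a complex that carries membrane proteins through the cilium. Not all 12 encode its subunits, and Mkks was the most abundant. These genes had a median of -0.09, and 0 were called in those fits, with 2 at an unadjusted p under 0.05 with the block, also against 35.6%. Among them, Bbs2 was at -0.62 (adjusted p = 0.0122, edgeR) with the block. The list of multiciliated cell genes, which holds none of the 41, was lower after PNX. Of its 28 tested genes, 28 were fitted lower, at a median of -1.14, against 52% of all genes fitted lower. With the block 14 were called lower, such as Sntn (-1.66), Tmem212 (-1.44) and Ccdc153 (-1.31), against 1.23% of all genes. Without the block edgeR called 0, with 21 lower at an unadjusted p under 0.05, against 4.96% of all genes.

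Epithelial cell type markers moved in the same libraries. The 29 multiciliated genes in the files summed to 178, 175 and 248 CPM in sham against 104, 108 and 104 CPM in PNX. The 10 genes of club and other secretory airway cells, neighbors of multiciliated cells, summed to 2559, 2565 and 4623 CPM in sham against 1224, 1188 and 1215 CPM in PNX, at a median of -1.52. Of these 9 were called lower with the block, Scgb1a1 and Bpifa1 among them. Over all genes that fit called 1.23% lower and 3.89% higher, the shares to set beside the calls of each list below. Sham replicate 3 was the highest library in the multiciliated and the club sums, as it was for the cilium genes. The 5 basal airway genes summed to 3.41, 4.17 and 4.35 CPM in sham against 6.05, 6.04 and 5.38 CPM in PNX, at a median of -1.16 with Krt14 called higher. The 6 alveolar type 1 genes summed to 5288, 5341 and 2225 CPM in sham against 3907, 3959 and 1126 CPM in PNX, at a median of -0.59 with 1 called lower, and here sham replicate 3 was the lowest sham library. The 8 alveolar type 2 genes had a median of -0.96 with 3 called lower, and the 8 general epithelial genes a median of -0.61 with 0 called and 6 (5 lower) at an unadjusted p under 0.05 with the block, against 35.6% of all genes in either direction. The 10 EC genes had a median of -0.16 with 0 called and 5 (4 lower) at an unadjusted p under 0.05 with the block, and Pecam1, which encodes CD31, had a log2 fold change of 0.01. The 8 fibroblast genes, by contrast, had a median of 2.14 with 5 called higher, and the 8 mesothelial genes a median of 1.06 with 5 called higher. The 8 macrophage genes tested had a median of 1.48 with 4 called higher, and summed to 2333, 2320 and 4194 CPM in sham against 3097, 3095 and 4168 CPM in PNX. The part of these cell types in the levels of the cilium genes was not tested.

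**Figure D4:**
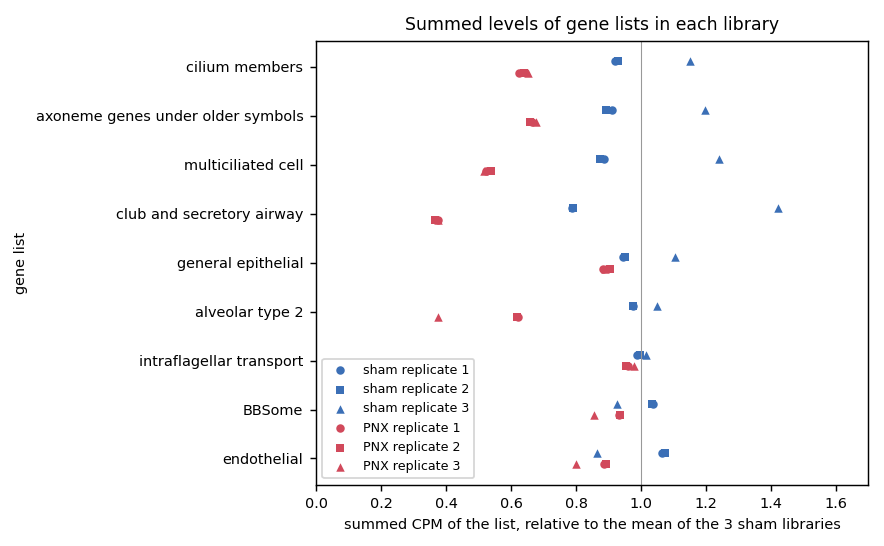
Summed level of each gene list in each library, divided by the mean of the 3 sham libraries (linear axis starting at 0). Blue marks sham, red marks PNX, and the marker shape gives the replicate. For the cilium, multiciliated and club lists all red points lie left of all blue points and sham replicate 3 lies farthest right. The same holds for the general epithelial and alveolar type 2 lists and for the axoneme genes under older symbols. For intraflagellar transport all points lie near 1.

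Some counts could mix genes. Whether counting used strand is not stated, and exons of Dnah6, Dnah9, Dnah10, Dnah2, Hydin, Dnah17 and Dnah8 overlap noncoding genes on the opposite strand, whereas no exon overlap was found for Dnah5, Cfap44, Ccdc40, Drc1, Rsph4a, Rsph1, Spag16, Spag6 and Tekt1 in GENCODE vM21 on GRCm38. Protein-coding genes on the opposite strand overlap Ccdc39 (Ttc14), Dnah11 (Cdca7l), Dnah17 (Pgs1), Spag17 (Wdr3), Dnaic1 (Enho) and Dnaaf1 (Taf1c). On the same strand, Dnaaf3 overlaps Tnni3, and Dnaaf2 overlaps Gm49383 and Gm49384. Of the 50-base stretches of Dnaaf2, 37.9% also occur in another gene, so its flat level is uncertain. In that annotation Dnah5 spans chr15:28203752-28472052 with 79 exons, Dnah6 spans chr6:73017606-73221651 with 77 exons, and Spag16 spans chr1:69826970-70725132. The counts of the 13 genes that fell ranged from 65 to 293 in PNX replicate 3, the shallowest library, so a single gene's level there was less precise than in the others.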

How the data were processed

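The authors prepared stranded mRNA libraries, aligned the reads to mm10 (STAR is named in the submitters' processing notes) and used the Basepair platform for counting. The sources used here give neither the counting rule nor the annotation release. For each of 33068 RefSeq transcripts the authors deposited an unnormalized count, FPKM and TPM. The FPKM values that the authors deposited were not used, and the TPM values that the authors deposited served only to compare levels between genes per length.

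The counts of a symbol were summed, and replicates 1 and 2 of each group were summed to 1 sample. The test was that of edgeR 4.0.16, under R 4.3.3 (TMM, filterByExpr, glmQLFit, glmQLFTest), with DESeq2 1.42.0 and limma 3.58.1 (voom) as alternatives. A standard error is the log2 fold change divided by the square root of F, an approximation. The deposit, inferred from which libraries the labels mark as taken over from a previous record, pairs the samples. Over 14774 genes, the change from earlier to later deposit in sham went with that in PNX (r = 0.740, rho = 0.737). With 4 samples, an exact permutation test of a single value could not go below p = 0.333. On simulated counts with 200 genes changed 4-fold, 4 samples and 16483 genes, edgeR called 0 of the 200 without the block and 200 with it, and limma-voom called 0. DESeq2 called 186, on 16598 genes. The simulation gave both groups the same shift between deposits and took its dispersion from the fit with the block. Recovery with the block was thereby built in, so it does not test the block. In the data the cilium genes shifted between deposits by a median of 0.59 (log2) in sham and 0.12 in PNX. Under these settings edgeR and limma-voom without the block called 0 of the changed genes, whereas DESeq2 without the block called 186. The simulation was a single draw and its shift between deposits differs from the data. It therefore does not say what the fit without the block could detect in the data.

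The cilium genes, the gene lists, the thresholds and the tests were chosen with earlier results of these data known. Genes named with values are those called in either fit, the 2 with the highest count per role, the 5 highest and 5 lowest fold changes and near-identical families, 32 of the 41. Of other lists, the genes given were chosen after their values were seen where they are neither called nor the most abundant.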

Additional observations from a re-analysis of the deposited data

How the results depend on the processing

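Without the block, 0 cilium genes were called under every other scaling, filter and threshold tried and without any single replicate, and DESeq2 called 5. Over all genes, DESeq2 called 587, edgeR on the 6 libraries 409, and leaving out single replicates gave 0 to 2. With the replicate block, 849 genes and 13 cilium genes were called. With the block and the 6 libraries, 920 and 13 were called. The remaining alternatives with the block, and DESeq2 on the 6 libraries, were chosen after seeing the data. With the block, the counts over all genes and over the cilium genes were 624 and 5 with DESeq2's size factors, 646 and 6 with upper-quartile scaling, 629 and 5 with library size alone, 727 and 12 with the transcript of the highest total, 816 and 14 with DESeq2, 921 and 12 with limma-voom and 1186 and 17 (2.28% of all genes called lower) at an adjusted p under 0.05. With the block they were 671 and 11 without sham replicate 1, 668 and 8 without sham replicate 2, 485 and 3 without PNX replicate 1 and 863 and 14 without PNX replicate 2. A block without either replicate 3 was not run, since 1 deposit then lacks a group. DESeq2 on the 6 libraries called 927 and 14. The median log2 fold change of the cilium genes ranged from -1.23 to -0.67 without single replicates, and the SD of its within-deposit values was 0.12. Every alternative gave a negative median.

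For the 32 named genes under 30 alternatives, 801 of 960 values kept their direction and side of the threshold, 148 were newly called and 11 changed sign, all in genes near 0. Rsph3a became -0.0025 with upper-quartile scaling and -0.073 with the block without sham replicate 2. Dnaaf2 became -0.027 with the block without sham replicate 1 and -0.013 with the block without PNX replicate 2. Without single replicates and no block, Rsph3a ranged from -0.072 to 0.11, Dnaaf2 from -0.055 to 0.18, Dnaaf3 from -0.64 to 0.23 and Cfap20 from -0.0026 to 0.073. The cause was not tested. The block changed the call of the 13 genes named in the report and, of the genes in the lists, of those given as called there. Dnah2, Ccdc39, Dnah11 and Tppp3 passed the adjusted p with the block and missed the call on the fold threshold alone. Genes such as Tekt3, at 9 to 42 counts in a library, have little precision.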

Other observations

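The files list many axoneme genes under older names. Of 78 current RefSeq symbols that follow the naming rule, 67 are in the files by a transcript accession, 38 under a symbol that follows the rule and 29 under an older one that does not. Of these 29 genes 28 were tested. The log2 fold change was below 0 in 26 of them, with a median of -0.98, and 8 were called lower with the replicate block, against 1.23% of all genes. For 21 of the 28 all PNX libraries lay below all sham libraries, against 18% of all genes. Together the 29 genes had 155, 152 and 204 CPM in sham against 113, 112 and 115 CPM in PNX.

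Among them, Ccdc108 (now Cfap65) was 14.6, 14.6 and 25.2 CPM in sham against 7.33, 7.11 and 10.04 CPM in PNX, and fell by 1.16 on the log2 scale with the block (adjusted p = 0.000798, edgeR). Ttc18 (now Cfap70) was 9.42, 7.68 and 15.3 CPM in sham against 4.73, 3.63 and 4.67 CPM in PNX and fell by 1.34. Ccdc11 (now Cfap53) was 5.35, 4.92 and 5.29 CPM in sham against 2.45, 2.38 and 1.62 CPM in PNX and fell by 1.33, without the high value in sham replicate 3 that most cilium genes had. Ccdc104 (now Cfap36), the most abundant of the 29 genes, was 16.2, 16.2 and 15.4 CPM in sham against 16.9, 16.8 and 14.9 CPM in PNX, with a log2 fold change of 0.01.

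The RFX X-box letters occurred in 6 of the 23 of these genes with a promoter window (26.1%), and in 4 of the 23 multiciliated list genes with one (17.4%), against 2.49% of all genes with one.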
